A study of Mus musculus with 4 samples.

Results

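The Ly6 antigens are small cell surface proteins, and 8 genes of the family were followed in Ly6G+ bone marrow cells of *lal-/-* and *lal+/+* mice: *Ly6g*, *Ly6c1*, *Ly6c2*, *Ly6a*, *Ly6e*, *Ly6d*, *Ly6i* and *Ly6k*. The members were chosen by name, as the Ly6 antigens that mark marrow cell types and those seen by the Gr-1 antibody, and every probe set that names one of them was kept. Of the 8 genes 7 had a probe set, among 19938 genes measured. A probe set is a group of probes read as 1 value. There were 7 such probe sets, of which 5 name 1 gene (*Ly6g*, *Ly6e*, *Ly6d*, *Ly6i*, *Ly6k*) and 2 name both *Ly6c1* and *Ly6c2*. The gene table used here gives no probe set to *Ly6a*, so no value is given for it.

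Ly6 proteins fold into a compact 3-finger domain and are held in the outer leaflet of the plasma membrane by a glycosylphosphatidylinositol (GPI) anchor. Several of them serve as cell type markers in mouse marrow. Ly6G marks neutrophils and their later precursors, Ly6C marks monocytes and is also carried by neutrophils, and the Gr-1 antibody binds Ly6G and, more weakly, Ly6C. Ly6D marks lymphoid progenitors that are committed to the B lineage, while Ly6E is widespread and is induced by interferon.

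The *lal-/-* mice lack lysosomal acid lipase (LAL), the enzyme that splits cholesteryl esters and triglycerides in lysosomes, and the *lal+/+* mice are their wild type controls. Both genotypes were 5 months old and had been crossed back to FVB/N for 10 generations. Total RNA of bone marrow cells was hybridised to 4 Affymetrix Mouse Gene 1.0 ST arrays, 2 for each genotype. The labels give the cells as positive for CD11b and Gr-1, and the methods describe positive selection with a Ly6G antibody on magnetic beads, so the product of *Ly6g* was itself the antigen by which cells were chosen in both genotypes. Neither labels nor methods tie an array to a single mouse, so the p-values reflect array-to-array spread within a genotype, which may be technical.

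Values are log2 expression levels after quantile normalization over the 4 arrays. Calls needed an adjusted p from limma under 0.05 together with a fold of at least 2. Across all genes 7.56% were called higher and 3.24% lower in *lal-/-* cells, and for the whole table of 35557 probe sets the shares were 6.22% and 6.43%. Higher calls made up 70.0% of all gene calls here, 84.9% when the arrays were set to a common median instead, and 76.1% on the values as deposited. *Lipa*, which encodes LAL, read 9.50 and 9.05 in *lal+/+* cells and 7.37 and 7.49 in *lal-/-* cells, and was called lower (adjusted p = 4.17e-04). Each probe set was set only against itself in the other genotype. To mark where a signal can no longer be told from that of a silent gene, the 95th percentile of 1035 olfactory receptor probe sets was used, at 6.79 in *lal+/+* and 6.29 in *lal-/-* cells.

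The Ly6 members split by direction. The 2 probe sets of *Ly6c1* and *Ly6c2* and that of *Ly6g* were called higher in *lal-/-* cells, those of *Ly6d*, *Ly6e* and *Ly6k* were called lower, and that of *Ly6i* was not called. The genotypes did not overlap in 6 of the 7 probe sets, against 65.7% of all genes, and the median log2 fold change was -0.08 over the 7 probe sets and 0.08 over all genes. An exact permutation test of 1 value on 2 against 2 arrays cannot give a two-sided p below 0.333, so the calls rest on variances that limma shares across probe sets. The RNA came from many cells at once, and a larger share of cells that carry a transcript cannot be told apart from more of it in each cell.

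*Ly6g* encodes the antigen of the selection antibody. It read 10.19 and 9.80 in *lal+/+* cells and 12.91 and 12.84 in *lal-/-* cells. Both *lal-/-* arrays lay above both *lal+/+* arrays, and the SD was 0.28 in *lal+/+* and 0.05 in *lal-/-* cells (n = 2 arrays each). The log2 fold change was 2.88 (standard error 0.16, 95% confidence interval 2.50 to 3.26, adjusted p = 8.0e-05), and *Ly6g* was the 49th largest rise among all genes. Leaving out one array at a time moved it between 2.58 and 3.02.

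*Ly6c1* and *Ly6c2* encode the near-identical proteins read as Ly6C, and both of their probe sets name the pair, so the share of each gene in the signal is not known. The dimmer probe set read 9.46 and 9.51 in *lal+/+* cells and 11.92 and 12.00 in *lal-/-* cells. The brighter one read 9.91 and 10.43 in *lal+/+* cells and 12.17 and 12.25 in *lal-/-* cells. On both, the *lal-/-* arrays lay above the *lal+/+* arrays with a gap wider than the distance between arrays of a genotype. The log2 fold change was 2.48 (standard error 0.12, 95% confidence interval 2.17 to 2.78) for the dimmer probe set and 2.04 (standard error 0.21, 95% confidence interval 1.5 to 2.58) for the brighter one, with adjusted p = 0.00225 and 0.00486 over all 35557 probe sets. The intervals of the 2 probe sets overlap. In the same fit over all probe sets *Ly6g* also had an adjusted p of 0.00225. The adjusted p values of the members with a probe set of 1 gene come from another fit and cannot be compared with these.

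The other 3 called members fell. *Ly6d*, the marker of B lineage commitment, read 9.97 and 9.56 in *lal+/+* cells and 6.66 and 6.30 in *lal-/-* cells. Both *lal-/-* arrays were thus within 1 log2 unit of the 6.29 that marks silent genes in that genotype. The log2 fold change of -3.29 (standard error 0.19, 95% confidence interval -3.74 to -2.84, adjusted p = 8.93e-05) was a 9.77-fold lower level, the 31st largest fall among all genes.

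*Ly6e*, the interferon-inducible member, read 11.04 and 11.09 in *lal+/+* cells and 9.07 and 9.04 in *lal-/-* cells. It stayed far above the silent level in both genotypes, with an SD of 0.04 in *lal+/+* and 0.02 in *lal-/-* cells (n = 2 arrays each). The log2 fold change was -2.01 (standard error 0.12, 95% confidence interval -2.29 to -1.73, adjusted p = 9.65e-05), a 4.03-fold lower level. *Ly6k*, best known from testis and germ cells, read 8.48 and 8.17 in *lal+/+* cells and 6.83 and 7.05 in *lal-/-* cells. The genotypes did not overlap, and the *lal-/-* arrays lay above the silent level by less than 1 log2 unit. Its log2 fold change was -1.38 (standard error 0.16, 95% confidence interval -1.76 to -1.01, adjusted p = 8.81e-04).

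*Ly6i* is a close relative of *Ly6c1* that is known from monocytes and macrophages. It read 6.43 and 6.31 in *lal+/+* cells and 6.16 and 6.42 in *lal-/-* cells. The genotypes overlapped, the *lal+/+* mean of 6.37 lay under the silent level and the *lal-/-* mean of 6.29 lay at it. The log2 fold change was -0.08 (standard error 0.14, 95% confidence interval -0.42 to 0.25, adjusted p = 0.704).

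**Figure D1:**
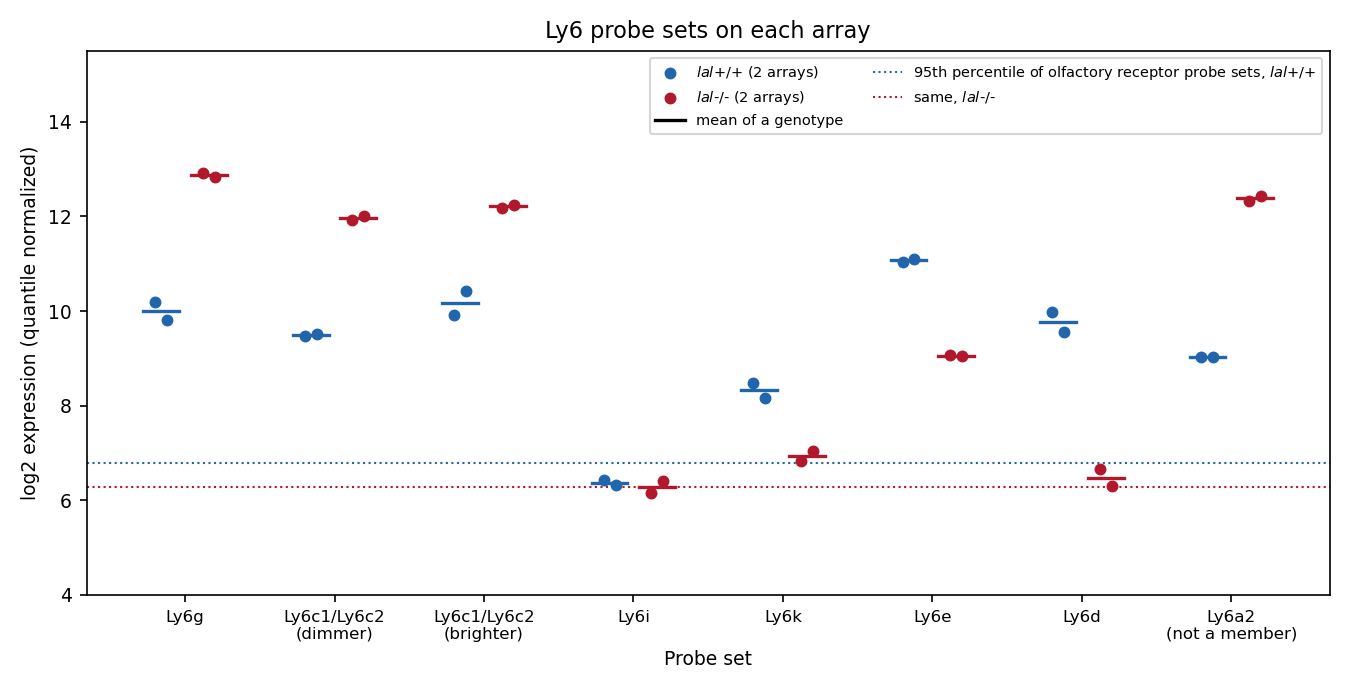
Each point is the log2 level of 1 Ly6 probe set on 1 array, blue for *lal+/+* and red for *lal-/-* with 2 arrays each, bars mark the mean of a genotype, and dotted lines mark the 95th percentile of olfactory receptor probe sets. *Ly6g*, both *Ly6c1* and *Ly6c2* probe sets and *Ly6a2* (shown for comparison, not a member) lie higher in *lal-/-* cells, *Ly6k*, *Ly6e* and *Ly6d* lie lower, and the *Ly6i* arrays overlap near the dotted lines.

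All 8 members lie in 1 cluster on mouse chromosome 15, which the choice of members did not use. RefSeq (assembly GRCm38.p6) lists 22 protein-coding genes from *Ly6d* at one end to *Ly6h* at the other, of which 15 carry a Ly6 name. Other kinds of gene were left out. Of these 22 genes 14 had a probe set of their own, and among them 2 were called higher, 3 were called lower and 9 were not called. Over all genes 7.56% were called higher and 3.24% lower. The called genes of the cluster are members already given above, except *Ly6a2*. Apart from *Ly6c1* and *Ly6c2*, whose shared probe sets were counted apart, the higher pair was *Ly6g* and *Ly6a2*. The calls were not mixed along the order. *Ly6c1*, *Ly6c2*, *Ly6a2* and *Ly6g* follow each other with no other protein-coding gene between them, while *Ly6d*, *Ly6k* and *Ly6e* all lie on one side of this run. With 5 calls in the cluster this order is a description.

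*Ly6a2* is no member and was singled out after its values were seen, since it lies between *Ly6c2* and *Ly6g*. It read 9.03 and 9.04 in *lal+/+* cells and 12.32 and 12.44 in *lal-/-* cells. It rose by 3.34 on the log2 scale (standard error 0.12, adjusted p = 2.98e-05), which was wider than that of any member called higher. On the far side of *Ly6g*, *Ly6g2* had a log2 fold change of 0.11 and *Ly6f* one of 0.80 (adjusted p = 0.0125), which was under the fold threshold. The 3 measured genes of the interval without a Ly6 name, *Gml* and the steroid hydroxylase genes *Cyp11b1* and *Cyp11b2*, were not called either. Of the 14 genes 6 were at or below the silent level in both genotypes. The *Ly6c1*, *Ly6c2*, *Ly6a2*, *Ly6g* and *Ly6i* transcripts are close copies, and how far probes of one read another was not tested.

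**Figure D2:**
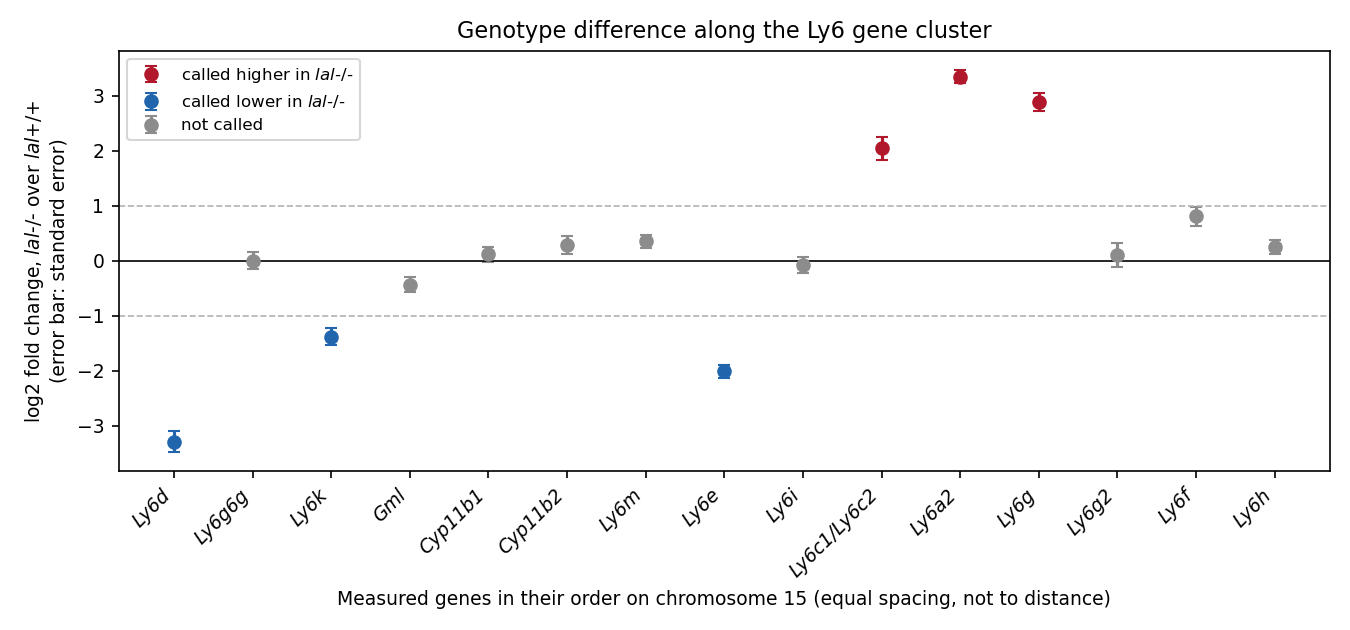
The log2 fold change of *lal-/-* over *lal+/+* cells, with its standard error, is drawn for the measured genes of the chromosome 15 cluster in their genomic order at equal spacing, and dashed lines mark a fold of 2. The genes called higher (red) are neighbours at *Ly6c1*/*Ly6c2*, *Ly6a2* and *Ly6g*, and those called lower (blue) are *Ly6d*, *Ly6k* and *Ly6e*, to their left.

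The promoters of the run that rose are shown because its members moved together. RefSeq promoter windows, which run from 250 bases before to 50 bases after a transcript start on GRCm38.p6, were at hand for 3 of the 8 members, *Ly6g*, *Ly6c1* and *Ly6c2*, and for *Ly6a2*. Where a gene has several starts, the window that aligned over most bases to that of *Ly6a2* is given, 5′ to 3′ on the strand of the gene. Capitals mark GAGGAA on either strand (the core bound by PU.1, so TTCCTC where it lies on the other strand) and TATAAA, the TATA box. The windows are chr15:75155079-75155378 on the plus strand for *Ly6g*, and on the minus strand chr15:75048788-75049087 for *Ly6c1*, chr15:75111922-75112221 for *Ly6c2* and chr15:75135079-75135378 for *Ly6a2*.
Ly6g: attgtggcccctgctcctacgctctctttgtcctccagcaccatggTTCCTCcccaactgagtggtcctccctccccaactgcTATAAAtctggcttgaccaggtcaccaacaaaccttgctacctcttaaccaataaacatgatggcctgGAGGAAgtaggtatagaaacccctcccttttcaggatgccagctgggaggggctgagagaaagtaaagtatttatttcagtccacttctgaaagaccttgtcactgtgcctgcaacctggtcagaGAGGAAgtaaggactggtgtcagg
Ly6c1: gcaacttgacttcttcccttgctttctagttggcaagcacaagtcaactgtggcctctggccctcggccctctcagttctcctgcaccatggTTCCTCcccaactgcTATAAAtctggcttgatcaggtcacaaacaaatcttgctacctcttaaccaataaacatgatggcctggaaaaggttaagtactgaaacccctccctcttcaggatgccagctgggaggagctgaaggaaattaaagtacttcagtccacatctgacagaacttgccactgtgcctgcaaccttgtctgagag
Ly6c2: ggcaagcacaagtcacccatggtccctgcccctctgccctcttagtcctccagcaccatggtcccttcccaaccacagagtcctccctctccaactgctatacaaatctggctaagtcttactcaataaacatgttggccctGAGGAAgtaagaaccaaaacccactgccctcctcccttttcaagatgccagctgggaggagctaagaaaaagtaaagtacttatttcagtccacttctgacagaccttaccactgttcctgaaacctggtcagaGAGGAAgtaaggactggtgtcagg
Ly6a2: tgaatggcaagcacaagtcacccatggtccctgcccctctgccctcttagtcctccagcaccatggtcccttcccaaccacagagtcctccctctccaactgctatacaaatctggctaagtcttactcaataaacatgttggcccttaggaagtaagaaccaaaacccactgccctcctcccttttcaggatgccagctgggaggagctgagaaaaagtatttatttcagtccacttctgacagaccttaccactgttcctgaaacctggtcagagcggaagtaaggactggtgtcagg

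The 4 windows are copies of each other. *Ly6a2* and *Ly6c2* were identical at 291 of 295 aligned bases (98.6%), *Ly6g* and *Ly6c1* at 88.1% of 252, *Ly6g* and *Ly6c2* at 86.8% of 272, *Ly6a2* and *Ly6g* at 87.3% of 267, and *Ly6c1* and *Ly6c2* at 82.3% of 260. PU.1 is a transcription factor of the myeloid lineage, and GAGGAA was present in the *Ly6g* window at positions -204, -99 and 27 relative to the start. It was present in the *Ly6c1* window at -158 and in the *Ly6c2* window at -108 and 27. The *Ly6a2* window held none. GAGGAA occurs in 28.3% of all 32851 promoter windows of the table, counted on both strands, so these matches are common.

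TATAAA, which 13.6% of all windows hold, was present at -167 in *Ly6g* and at -143 in *Ly6c1*. Other motifs searched on both strands were TTNNGCAA for C/EBP factors (10.8% of all windows), TTCNNNGAA for STAT factors (8.30%) and GAAANNGAA for interferon response elements (8.56%). None of the 3 was present in the 4 windows printed, and TTNNGCAA was present at -232 in the window of the other *Ly6g* start. A match or its absence describes the letters of these windows only.

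Relatives of the family were read from a list of 33 other genes of the Ly6/uPAR type, whose proteins share the 3-finger fold. Of 29 with a probe set, 2 were called higher, 1 was called lower and 26 were not called. These counts are close to the shares over all genes, 7.56% higher and 3.24% lower. The list does not hold *Ly6a2*, which was called higher at a log2 fold change of 3.34. It also lacks *Ly6g6g*, which was not called at 0.0019. The median log2 fold change was 0.12. *Cd177*, a GPI-anchored neutrophil antigen, read 8.37 and 8.40 in *lal+/+* cells and 11.28 and 11.22 in *lal-/-* cells. Its difference was 2.86 on the log2 scale (standard error 0.12, adjusted p = 3.71e-05). *Plaur*, the urokinase receptor, read 8.87 and 8.53 in *lal+/+* cells and 10.19 and 10.26 in *lal-/-* cells. Its difference was 1.53 (standard error 0.15, adjusted p = 5.29e-04). Both listed relatives that were called higher are known from myeloid cells. *Lynx1*, a modulator of nicotinic receptors in neurons, read 7.43 and 7.36 in *lal+/+* cells and 6.18 and 5.95 in *lal-/-* cells, and fell by 1.33 on the log2 scale (adjusted p = 5.73e-04). Its *lal-/-* level lay below the silent level, so the size of this fall is not exact. Of the 29 relatives 14 were below the silent level in both genotypes.

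Genes that build, attach and trim the GPI anchor were taken as the machinery that Ly6 proteins share. Of 29 measured, 3 were called higher, 1 was called lower and 25 were not called, against 7.56% higher and 3.24% lower over all genes. The median log2 fold change was 0.30, against 0.08 over all genes, and 20 of 29 values were above 0. Of the 29 genes 10 were below the silent level in *lal+/+* cells and 4 in *lal-/-* cells. When the arrays were only set to a common median, and on the values as deposited, 5 were called higher. *Pigu*, a subunit of the transamidase that attaches the anchor, rose by 1.28 on the log2 scale (standard error 0.12, adjusted p = 4.42e-04). *Pigm*, the first mannosyltransferase of the pathway, rose by 1.21 (standard error 0.13, adjusted p = 6.14e-04). *Dpm2*, a regulator of mannose donor synthesis, rose by 1.03 (standard error 0.14, adjusted p = 0.00174), and it missed the fold threshold at 0.94 without *lal+/+* replicate 1 and at 0.95 without *lal-/-* replicate 2. *Pgap1* encodes the deacylase that trims the inositol of the anchor after attachment. It read 7.98 and 8.06 in *lal+/+* cells and 5.43 and 5.52 in *lal-/-* cells, and fell by 2.54 on the log2 scale (adjusted p = 6.04e-05). The *lal-/-* arrays lay below the silent level, so the size of this fall is not exact either. *Pgap1* was the only gene of this list called lower.

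**Figure D3:**
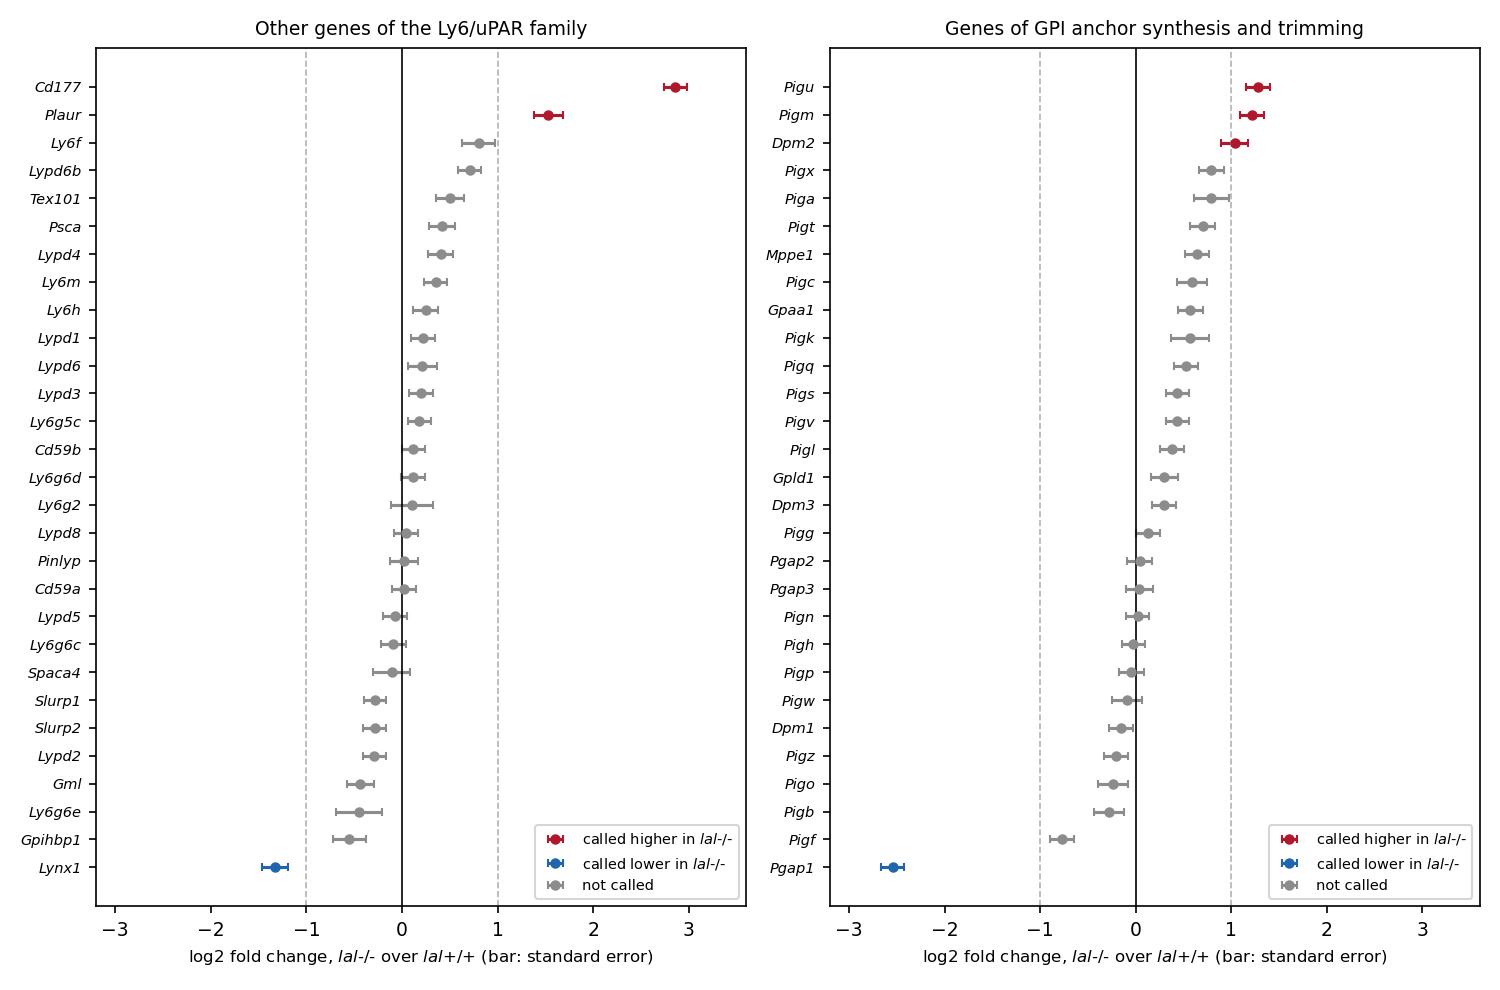
Points are log2 fold changes of *lal-/-* over *lal+/+* cells with standard errors, for 29 other genes of the Ly6/uPAR family on the left and 29 genes of GPI anchor synthesis and trimming on the right, sorted by size, with dashed lines at a fold of 2. Most genes lie between the dashed lines, *Cd177* and *Plaur* stand at the upper end and *Lynx1* at the lower end on the left, and *Pgap1* stands apart at the lower end on the right. *Ly6a2* is not in the list on the left.

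*Ly6e* and several other Ly6 genes are known to respond to interferon, so a list of interferon-induced genes was set beside them. Of 19 measured, 1 was called higher and 0 were called lower by limma, against 7.56% and 3.24% of all genes. The median difference was 0.14 on the log2 scale. At an unadjusted p under 0.05 the list had 4 genes higher and 4 lower. Of all probe sets of 1 gene, 40.9% had a limma p that low, in either direction. The gene called higher was *Ifit2*, an antiviral RNA-binding protein gene, at 1.23 (adjusted p = 0.00862), and since it read 6.20 and 5.43 in *lal+/+* cells, below the silent level, this size is not exact. Among 10 transcription factors of the myeloid lineage 2 were called higher and 0 were called lower, with a median of 0.49, and at an unadjusted p under 0.05 there were 6 higher and 1 lower. *Spi1*, which encodes PU.1, read 9.38 and 8.92 in *lal+/+* cells and 10.44 and 10.36 in *lal-/-* cells, and rose by 1.25 on the log2 scale (adjusted p = 0.00199). *Cebpe*, a factor of granule formation in neutrophil precursors, rose by 1.98 (adjusted p = 1.69e-04).

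The genes whose profile lay nearest to that of *Ly6g* were found by the root mean square difference of the 4 log2 values, each centred on the gene's own mean. Over these 4 arrays they were *Fcnb* (difference 0.0281), *Tmem14c* (0.0419), *Rab3d* (0.0419), *Zmpste24* (0.0420) and *Upp1* (0.0597). Their log2 fold changes ran from 2.82 to 2.93, of which those of *Fcnb* and *Rab3d* are not exact, since their *lal+/+* means of 6.56 and 5.97 lay below the silent level. For the brighter *Ly6c1* and *Ly6c2* probe set they were *Tnnc1* (0.0596), *F13a1* (0.0637), *Emp3* (0.0637), *Adat2* (0.0730) and *Has2* (0.0845). The *lal+/+* means of *Tnnc1* (6.30), *F13a1* (6.02) and *Has2* (5.77) also lay below the silent level, so their fold changes are not exact. With 2 arrays for each genotype, nearness reflects mostly a genotype difference of like size.

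Markers of some marrow cell types differed between the genotypes, and those of others did not. B cell markers were called lower in 9 of 9 measured genes, against 3.24% of all genes. Their mean log2 level was 9.71 and 9.51 in *lal+/+* cells and 6.04 and 5.93 in *lal-/-* cells. In *lal-/-* cells 4 of the 9 were below the silent level, *Ms4a1*, *Ebf1*, *Cr2* and *Fcer2a*, while none was in *lal+/+* cells. The *Ly6d* transcript and the B cell markers were both lower in *lal-/-* cells. The part of B lineage cells in the *Ly6d*, *Ly6e* and *Ly6k* values was not tested.

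Markers of neutrophil precursors were higher in *lal-/-* cells, as were *Ly6g* and the Ly6C genes. Promyelocyte markers were called higher in 5 of 5 genes, against 7.56% higher and 3.24% lower over all genes. Their mean log2 level was 5.68 and 5.66 in *lal+/+* cells and 8.83 and 8.75 in *lal-/-* cells. All 5 were below the silent level in *lal+/+* cells. Myelocyte markers, a list that holds *Cd177* and *Cebpe*, were called higher in 6 of 8 genes and averaged 10.72 and 10.69 in *lal+/+* and 12.31 and 12.29 in *lal-/-* cells. Markers of mature neutrophils were called higher in 2 and lower in 2 of 8 genes, and their mean of 12.32 and 12.28 in *lal+/+* and 12.28 and 12.31 in *lal-/-* cells overlapped. The part of a shift between these stages in the *Ly6g* and Ly6C values was not tested.

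Monocytes are the other marrow cells rich in Ly6C. Their markers were called higher in 2 and lower in 2 of 9 genes, and the mean was 7.80 and 7.73 in *lal+/+* and 7.70 and 7.75 in *lal-/-* cells, so the genotypes overlapped. *Ccr2*, a receptor of Ly6C-high monocytes, was not called and read 6.66 and 6.13 in *lal+/+* and 7.28 and 7.17 in *lal-/-* cells. The 2 called higher were *Fcgr4* and *F13a1*, and *F13a1*, one of the nearest genes to the brighter Ly6C probe set, lay below the silent level in *lal+/+* cells. The 2 called lower were *Csf1r*, the receptor of the monocyte growth factor CSF1, which fell by 1.43 on the log2 scale (adjusted p = 3.18e-04), and *Cx3cr1*, the fractalkine receptor gene, which fell by 1.20 (adjusted p = 0.00286). Plasmacytoid dendritic cells also carry Ly6C, and their markers were called lower in 1 and higher in 0 of 7 genes (6 and 0 at an unadjusted p under 0.05), with means of 6.83 and 7.04 in *lal+/+* and 6.35 and 6.39 in *lal-/-* cells. Over all genes 7.56% were called higher and 3.24% lower. Of all probe sets of 1 gene, 40.9% had an unadjusted limma p under 0.05.

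T and NK cell markers were called higher in 1 and lower in 4 of 9 genes (1 and 6 at an unadjusted p under 0.05), and their mean was 7.75 and 7.70 in *lal+/+* and 6.83 and 6.96 in *lal-/-* cells, with no overlap. The list was not uniform. *Cd3d* rose by 2.42 on the log2 scale (adjusted p = 6.64e-05), while *Cd2*, *Cd3g*, *Il7r* and *Cd3e* were called lower. Plasma cell markers were called lower in 3 of 7 genes (1 higher and 4 lower at an unadjusted p under 0.05), with means of 7.25 and 7.13 in *lal+/+* and 6.57 and 6.54 in *lal-/-* cells. The part of these cells in the members' values was not tested. Of the remaining lists, eosinophil markers were called higher in 1 and lower in 1 of 5 genes, stem and progenitor cell markers higher in 1 of 8, and endothelial markers lower in 1 of 7. The shares over all genes were 7.56% higher and 3.24% lower, and 40.9% of probe sets of 1 gene had an unadjusted limma p under 0.05. Of the stem and progenitor cell markers 7 of 8 were below the silent level in *lal+/+* cells and 5 of 8 in *lal-/-* cells. *Itgam*, which encodes the CD11b of the labelled sort, read 9.88 and 9.74 in *lal+/+* cells and 10.96 and 11.03 in *lal-/-* cells (adjusted p = 6.69e-04, called higher).

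**Figure D4:**
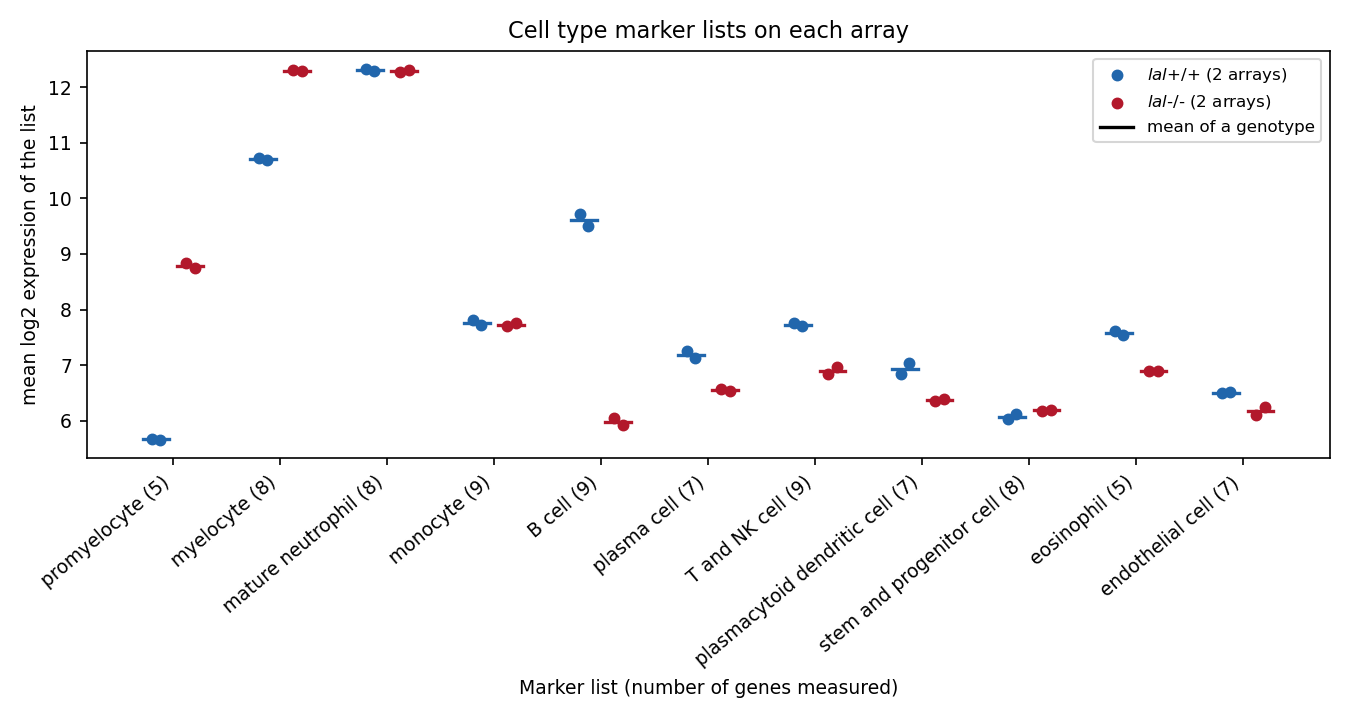
Each point is the mean log2 level of the measured genes of a marker list on 1 array, blue for *lal+/+* and red for *lal-/-* with 2 arrays each, and bars mark the mean of a genotype. The promyelocyte and myelocyte lists lie higher in *lal-/-* cells, the B cell list lies lower, from 9.71 and 9.51 to 6.04 and 5.93, and the mature neutrophil and monocyte lists overlap.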

How the data were processed

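The data are 4 Affymetrix Mouse Gene 1.0 ST arrays, 2 of *lal+/+* and 2 of *lal-/-* Ly6G+ bone marrow cells. The deposited values are log2 expression levels, obtained by the authors with RMA (Partek Genomics Suite), and the labels name GCOS 1.1. Of 35557 probe sets 21789 name 1 gene, 1621 name several and 12147 are absent from the gene table used here. Symbols of 21698 were matched to RefSeq and 91 were kept.

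Deposited medians were 6.30, 6.36, 6.15 and 6.15, a gap of up to 0.208, so the columns were quantile normalized. A model with genotype as its only term was fitted with limma 3.58.1 in R 4.3.3 (prior degrees of freedom 4.83, residual 2). The Benjamini-Hochberg adjustment covered all probe sets of 1 gene. Probe sets that name several genes were fitted and adjusted over all 35557. A gene with several probe sets is given by its brightest one. Pearson's r across probe sets was 0.984 between *lal+/+* arrays, 0.987 between *lal-/-* arrays and 0.922 to 0.932 across genotypes. The number of arrays limits the precision.

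The members and gene lists were chosen with earlier results of these data known, so a count over a list is a description. The text names every member, up to 4 called genes of each other list in each direction, genes needed to describe the preparation, and the 5 genes nearest to *Ly6g* and to the brightest other member, and it does not print all of these. Promoter windows were searched and aligned with Biopython 1.88 in Python 3.11.15. The alternatives were a common median, the values as deposited, robust variances with an intensity trend, an ordinary linear model, a replicate block, a filter on low levels, adjustment over all probe sets, no fold threshold, an adjusted p under 0.01 and each array left out. A crossed pairing was added after the data were seen. The procedure was tested on simulated data.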

Additional observations from a re-analysis of the deposited data

How the results depend on the processing

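The 3 higher and 3 lower Ly6 probe sets kept these counts under every alternative but an ordinary linear model without shared variances, which called 0 in each direction among the members, the Ly6/uPAR relatives, the GPI anchor genes and all genes. In that model 6 of 7 member probe sets, and 5691 genes in all, had an unadjusted p under 0.05, and the adjusted p was 0.0724 for *Ly6g*, 0.0542 and 0.108 for the dimmer and brighter Ly6C probe sets, 0.11 for *Ly6k*, 0.0517 for *Ly6e* and 0.0781 for *Ly6d*. Over 14 alternatives the log2 fold change ran from 2.58 to 3.29 for *Ly6g*, from 1.71 to 2.44 and from 2.41 to 2.93 for the brighter and dimmer Ly6C probe sets, from -3.63 to -2.94 for *Ly6d*, from -2.04 to -1.43 for *Ly6e* and from -1.63 to -1.08 for *Ly6k*. *Ly6i* changed sign to 0.0464 without *lal-/-* replicate 1, and leaving out one array at a time gave it -0.21 to 0.0464. Without a fold threshold 5 relatives and 12 GPI anchor genes were higher and 2 GPI anchor genes lower, and all genes had 3938 higher and 1963 lower calls. A common median and the values as deposited each called 5 GPI anchor genes higher. They called 2619 and 2013 genes higher and 467 and 633 lower, against 1508 and 646. The median shift over all genes was 0.08 on the log2 scale, -0.05 on deposited values and 0.12 with a common median. The methods' tissue term could not be fitted to 1 tissue.

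The deviations of same-numbered arrays correlated at -0.175, so replicate numbers were not taken as pairs. A replicate block kept 3 and 3 member calls and 1508 and 646 gene calls, and so did the crossed pairing.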
